A study of Mus musculus with 12 samples.

Results

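The genes described here are 27 mouse genes of cholesterol synthesis and of its regulation by SREBP2, picked by symbol from a fixed list among the 55416 gene rows of each table. They comprise 20 enzymes, 4 genes of sterol sensing (Srebf2, Scap, Insig1, Insig2) and 3 genes of sterol transport (Stard4, Npc1, Npc2). All 27 were found, and all 27 passed the filter on low counts that left 17130 genes for testing. The study profiled messenger RNA in the ear skin of C57BL/6 animals, 8 to 12 weeks old, on day 6, in 12 libraries that form 4 groups of 3. In the group named UTX_Veh the label carries no imiquimod, and the abbreviation UTX is not spelled out. IMQ_Veh, IMQ_GW3965 and IMQ_Troglitazone carry imiquimod, a Toll-like receptor 7 agonist that provokes psoriasis-like skin inflammation. It was given each day to the ears as 20.8 mg of a cream holding 5% imiquimod. The labels give no cream for UTX_Veh, so against that group imiquimod and the rest of its cream cannot be told apart. IMQ_GW3965 mice also received 20 mg/kg of GW3965, an agonist of the oxysterol-sensing liver X receptors (LXR). IMQ_Troglitazone mice received 150 mg/kg of troglitazone, an agonist of the lipid-sensing receptor PPARγ. Both drugs were injected into the peritoneum daily from day 3, with DMSO as their vehicle. All groups share the strain, and whether a library came from 1 animal or from pooled animals is not given in the labels. P-values thus rest on library-to-library spread alone, and some of that may be technical. The drugs were given at different doses.

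Cholesterol is built from acetyl-CoA by way of mevalonate, isoprenoid diphosphates, squalene and lanosterol, and a series of further steps turns lanosterol into cholesterol. SREBP2, encoded by Srebf2, switches on most of these enzymes: when sterols are scarce, Scap escorts it from the endoplasmic reticulum to the Golgi for cleavage, and when sterols are plentiful, Insig proteins hold Scap back. In skin, cholesterol is a main lipid of the epidermal barrier, and keratinocytes make much of it locally.

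Library totals lay between 18242074 and 25641602 expected counts. In IMQ_GW3965 replicate 3, 11.6% of the counts belonged to the feature ENSMUSG00000119584, against 0.045% to 0.138% elsewhere. IMQ_Veh replicate 3 stood apart by its summed skeletal muscle markers (3638 CPM, where IMQ_Veh replicates 1 and 2 had 876 and 851) and its fibroblast markers (9106 CPM, where they had 4056 and 1834). The labelled tissue was borne out by 6 basal keratinocyte markers (Krt5, Krt14 and others), which summed to between 11180 and 30800 CPM in every library. CPM, the counts of a gene scaled by library, use library sizes adjusted with edgeR's TMM factors. In bulk tissue, fewer cells of a type and less RNA per cell cannot be told apart.

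On GRCm38 (GENCODE M21), 3 of the genes the results turn on span chr X 8185329 to 8193512 on the minus strand (Ebp, ENSMUSG00000031168), chr 5 28071363 to 28078662 on the plus strand (Insig1, ENSMUSG00000045294) and chr 1 121304353 to 121332589 on the minus strand (Insig2, ENSMUSG00000003721). Promoter stretches are shown for 7 of the genes because the NF-Y box CCAAT, bound by a factor that works beside SREBP2, recurs among them. RefSeq promoter windows (GRCm38.p6; 250 bases before to 50 bases after each start) were found for 22 of the 27 genes. The 5 without a window are Fdps, Fdft1, Sqle, Stard4 and Npc1. CCAAT, searched on both strands, was present in a window of 20 of the 22 (90.9%), and in 41.06% of all 27025 genes of the table and 42.0% of the 12224 tested genes with a window. Counted per window, since some genes have several, it was in 71.4% of 28 windows of these genes and 37.0% of windows of tested genes. Mvk had 5 copies in a single window, Hmgcs1 and Nsdhl 4 each, and Acat2 and Scap had none. A core of the sterol regulatory element, TCACNCCAC, was found in Hmgcs1 alone (1 of 22, against 1.44% of all genes). The looser TCANNCCAC, which contains every match of the first, was also found in Hmgcs1 alone, against 4.78% of all genes. An LXR element of the DR4 type, searched as an exact match, was in 0 of the 22 and in 0.01% of all genes. For a gene with several windows, the stretch comes from the window with the most copies of the box before the start. The 7 stretches were chosen after the expression values were seen. They are written 5′ to 3′ on the gene's strand, with the NF-Y box, on either strand, and the sterol element in capitals.
Hmgcs1, chr13:119690102-119690322, plus strand: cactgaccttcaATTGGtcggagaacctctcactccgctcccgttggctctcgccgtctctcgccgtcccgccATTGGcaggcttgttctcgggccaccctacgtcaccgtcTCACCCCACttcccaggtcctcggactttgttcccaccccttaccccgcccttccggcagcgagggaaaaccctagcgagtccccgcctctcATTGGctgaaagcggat
Mvk, chr5:114444084-114444268, plus strand: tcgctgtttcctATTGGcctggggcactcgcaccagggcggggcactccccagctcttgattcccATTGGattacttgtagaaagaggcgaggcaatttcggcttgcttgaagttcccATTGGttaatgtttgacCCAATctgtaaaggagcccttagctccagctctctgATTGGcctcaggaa
Pmvk, chr3:89454393-89454421, plus strand: aactcaggttggCCAATtcacagcatcta
Nsdhl, chrX:72918400-72918517, plus strand: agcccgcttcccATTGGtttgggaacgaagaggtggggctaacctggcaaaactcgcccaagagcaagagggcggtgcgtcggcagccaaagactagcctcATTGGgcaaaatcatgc
Ebp, chrX:8193551-8193694, minus strand: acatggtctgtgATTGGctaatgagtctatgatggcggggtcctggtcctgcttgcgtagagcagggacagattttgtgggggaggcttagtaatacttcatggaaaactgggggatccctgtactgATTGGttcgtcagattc
Insig1, chr5:28071184-28071212, plus strand: cgccctcctcccATTGGctccggcggcct
Insig2, chr1:121332602-121332737, minus strand: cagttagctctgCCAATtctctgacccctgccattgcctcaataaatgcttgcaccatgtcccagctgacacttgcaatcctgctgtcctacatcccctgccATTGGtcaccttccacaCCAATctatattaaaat
In the Hmgcs1 stretch the sterol element lies after the first 2 of 3 copies of the box and before the third. The Mvk stretch holds all 5 of its copies, and the Nsdhl stretch 2 of its 4. The matches describe letters in the windows and not binding.

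With imiquimod cream, most enzymes of the pathway rose, from the mevalonate steps to the steps after lanosterol, by up to 2.60-fold (Ebp). In IMQ_Veh against UTX_Veh, 20 of the 27 genes rose and 3 fell (edgeR quasi-likelihood test, adjusted p under 0.05 by Benjamini-Hochberg over all genes tested). Of all genes tested, 61.9% passed in either direction, 32.9% higher and 28.9% lower. The median log2 fold change was 0.65 over the 27 genes and 0.01 over all genes. Among the 20 enzymes 16 rose and 1, Ggps1, fell. The summed CPM of the enzymes was 2162, 2490 and 1905 in UTX_Veh and 4017, 3876 and 2857 in IMQ_Veh, so the groups did not overlap and IMQ_Veh replicate 3 was the lowest of its group. Here and below, the share of all genes tested whose groups did not overlap was not computed. Statements that groups were apart thus describe the values of the named genes only.

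**Figure D1:**
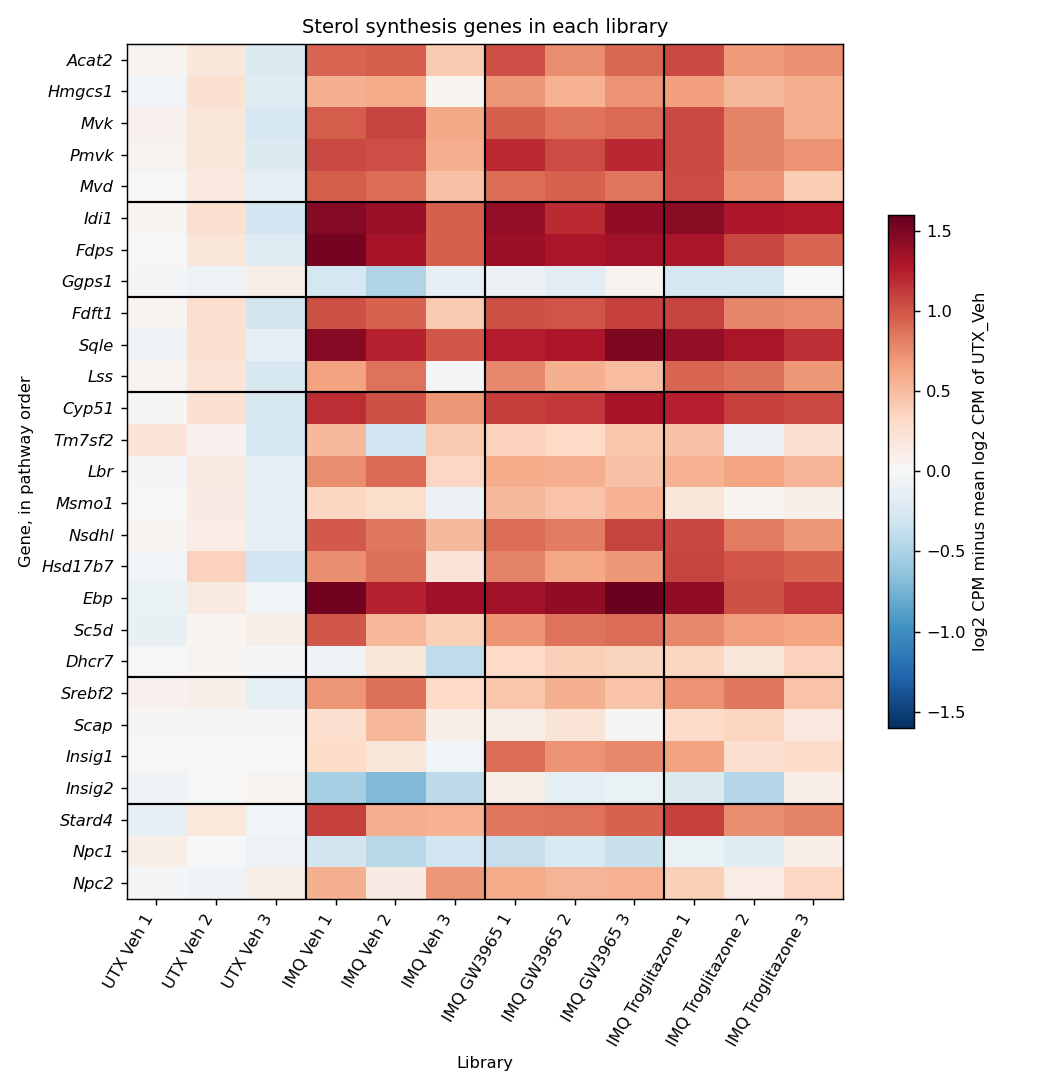
Colour shows log2 CPM of each gene (rows, in pathway order) in each of the 12 libraries (columns), minus the mean log2 CPM of the 3 UTX_Veh libraries. Most enzyme rows are red in all 9 imiquimod libraries, while Ggps1, Insig2 and Npc1 are blue in the 3 IMQ_Veh libraries.

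How far this rise reached depended on how libraries were scaled. Under TMM the median of all genes moved by 0.007 (log2), but it moved by -0.114 with upper-quartile factors, by -0.282 with plain library totals and by -0.399 with the deposited TPM (transcript abundance per length, scaled to the same total in each library). The median of the 27 genes stood above the median of all genes by 0.647 under TMM and by 0.646, 0.645 and 0.627 under those 3 scalings. The number of the 27 genes called higher and lower was 20 and 3 under TMM, 17 and 3 with upper-quartile factors, 14 and 4 with library totals, and 6 and 6 with TPM. Of all genes, 32.9% were higher and 28.9% lower under TMM, against 12.8% and 51.8% with TPM. Ebp, Sqle, Idi1, Fdps, Cyp51 and Pmvk were called higher, and Insig2 and Npc1 lower, in each of the 20 alternatives run.

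**Figure D2:**
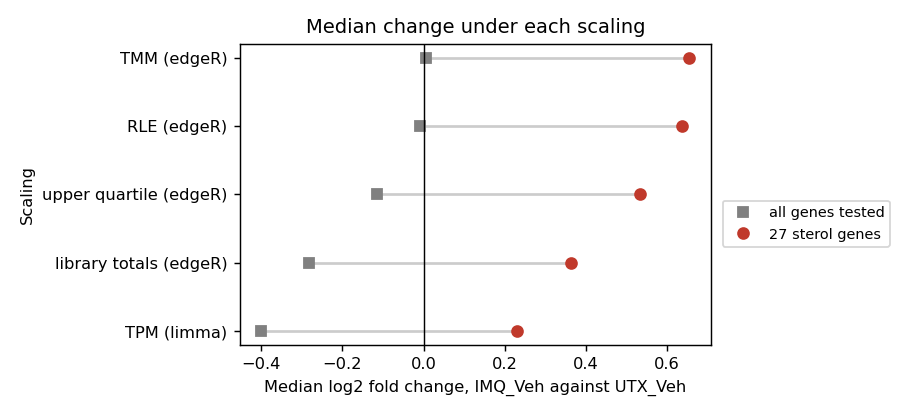
The horizontal axis is the median log2 fold change of IMQ_Veh against UTX_Veh under 5 scalings (rows), with squares for all genes tested and circles for the 27 sterol genes. Both medians shift together, from 0.007 and 0.654 under TMM to -0.399 and 0.229 with TPM, and the distance between them stays between 0.627 and 0.647.

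In the mevalonate part of the pathway all 5 genes rose, where 32.9% of all genes tested did: Acat2 (log2 0.78), Hmgcs1 (0.41), Mvk (0.89), Pmvk (0.90) and Mvd (0.79). Pmvk, the phosphomevalonate kinase, measured 56.9, 62.2 and 46.6 CPM in UTX_Veh and 114, 112 and 82.1 CPM in IMQ_Veh (log2 fold change 0.90, SE 0.15, edgeR adjusted p = 0.000275). Mvk, the mevalonate kinase, measured 52.4, 57.3 and 41.5 CPM against 97.9, 106 and 75.7 CPM (log2 0.89, SE 0.15, edgeR adjusted p = 0.000431). In both kinases every IMQ_Veh library exceeded every UTX_Veh library. Hmgcs1, which makes HMG-CoA, rose least, with overlapping groups (edgeR adjusted p = 0.0319), and its sign turned with TPM (log2 -0.14, limma adjusted p = 0.407). Its call was also lost without UTX_Veh replicate 1 or 3 and without IMQ_Veh replicate 1 or 2. Mvk kept its sign but missed the threshold with TPM (log2 0.34, limma adjusted p = 0.0699). Acat2 and Mvd also missed it with TPM (limma adjusted p = 0.197 and 0.225). RSEM shares reads between Acat2 and its close copy Acat3, whose TPM lay between 0.46 and 1.3 where that of Acat2 lay between 58.69 and 112.24.

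The isoprenoid steps showed large rises beside a fall. Fdps, the farnesyl diphosphate synthase, measured 132, 149 and 113 CPM in UTX_Veh and 377, 325 and 254 CPM in IMQ_Veh (log2 1.28, SE 0.15, edgeR adjusted p = 2.81e-05). Idi1, the isopentenyl diphosphate isomerase just before it, measured 141, 163 and 111 CPM against 378, 355 and 265 CPM (log2 1.26, SE 0.16, edgeR adjusted p = 4.09e-05). Neither pair of groups overlapped. Ggps1 takes farnesyl diphosphate away from sterols, to the geranylgeranyl chains that anchor proteins in membranes. It measured 25.2, 24.1 and 27.3 CPM in UTX_Veh and 20.9, 18.2 and 23.2 CPM in IMQ_Veh (log2 -0.30, SE 0.12, edgeR adjusted p = 0.043). That call rests on few libraries: without any of the 3 UTX_Veh libraries, or IMQ_Veh replicate 1 or 2, the adjusted p was between 0.054 and 0.14 with the sign kept.

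All 3 genes from squalene to lanosterol rose, where 32.9% of all genes tested did. Sqle, the squalene epoxidase and a control point of the later pathway, measured 121, 151 and 115 CPM in UTX_Veh and 350.1, 301 and 254 CPM in IMQ_Veh (log2 1.23, SE 0.14, edgeR adjusted p = 2.1e-05). Fdft1, the squalene synthase, measured 102, 121 and 81.5 CPM against 204, 193 and 134 CPM (log2 0.80, SE 0.17, edgeR adjusted p = 0.00153). In both genes the groups were apart. Fdft1 shares 18.3% of its exonic bases with Ctsb on the opposite strand, and the strand setting of the counting is not given in the sources used here. With TPM Fdft1 missed the threshold (log2 0.25, limma adjusted p = 0.198). Lss, the lanosterol synthase, rose by log2 0.53 with overlapping groups (edgeR adjusted p = 0.0327) and lost its call without UTX_Veh replicate 1 or 3 and without IMQ_Veh replicate 1 or 2.

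After lanosterol, 6 of 9 genes rose and 0 fell under TMM, where 32.9% of all genes tested rose and 28.9% fell. The members ranged from the largest rise of the 27 to no call. Ebp, the sterol isomerase, measured 35.1, 41.8 and 36.7 CPM in UTX_Veh and 110, 88.6 and 96.6 CPM in IMQ_Veh (log2 1.38, SE 0.12, edgeR adjusted p = 5.1e-06). Cyp51, the lanosterol demethylase, measured 158, 185 and 131 CPM against 353, 318 and 254 CPM (log2 0.97, SE 0.14, edgeR adjusted p = 0.000145). Both were free of overlap. Nsdhl (log2 0.79), Lbr (0.67), Sc5d (0.65) and Hsd17b7 (0.61) also rose, the last with overlapping groups and with its call lost without UTX_Veh replicate 3 or IMQ_Veh replicate 1 or 2. With TPM, Nsdhl, Lbr and Sc5d missed the threshold (limma adjusted p = 0.117, 0.502 and 0.0914). Hsd17b7 missed it with TPM and with library totals. The other 3 of the 9 did not pass under TMM: Tm7sf2 had a log2 fold change of 0.24 (95% interval -0.23 to 0.70), Msmo1 0.18 (-0.06 to 0.43) and Dhcr7 -0.07 (-0.33 to 0.20). With library totals and with TPM the signs of Tm7sf2 (-0.06 and -0.27) and Msmo1 (-0.11 and -0.30) turned. Msmo1 was called lower with TPM (limma adjusted p = 0.0279) but higher without IMQ_Veh replicate 3 (log2 0.31, edgeR adjusted p = 0.0107). Tm7sf2 shares 12.1% of its exonic bases with Vps51 on the same strand. Dhcr7, a reductase near the end of the pathway, measured 148, 153 and 145 CPM in UTX_Veh and 143, 170 and 113 CPM in IMQ_Veh. Though not called under TMM, it was called lower with TPM (log2 -0.69, limma adjusted p = 0.000824). It was also called lower with library totals (-0.36, edgeR adjusted p = 0.0327) and without IMQ_Veh replicate 2 (-0.27, edgeR adjusted p = 0.046). The ratio of Ebp to Dhcr7 counts within a library, which no scaling can alter and which was chosen after the values were seen, was 0.237, 0.273 and 0.254 in UTX_Veh and 0.770, 0.523 and 0.859 in IMQ_Veh. These ranges were apart, and an exact permutation test of 3 against 3 libraries has too few arrangements to pass 0.05.

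The regulators split. Srebf2, the gene of SREBP2 itself, measured 207, 211 and 177 CPM in UTX_Veh and 324, 365 and 247 CPM in IMQ_Veh (log2 0.65, SE 0.14, edgeR adjusted p = 0.00191). It missed the threshold with library totals (log2 0.36, edgeR adjusted p = 0.0555) and with TPM (0.13, limma adjusted p = 0.498). Scap, its escort, measured 129, 129 and 125 CPM against 155, 184 and 138 CPM (log2 0.32, SE 0.10, edgeR adjusted p = 0.0187), but its sign turned with TPM (log2 -0.23, limma adjusted p = 0.214). Without UTX_Veh replicate 3, IMQ_Veh replicate 1 or IMQ_Veh replicate 2 the adjusted p of Scap was 0.0594, 0.0569 and 0.193. Insig2, an anchor of Scap, measured 64.1, 66.8 and 68.8 CPM in UTX_Veh and fell to 46.0, 40.9 and 49.9 CPM in IMQ_Veh (log2 -0.55, SE 0.13, edgeR adjusted p = 0.00354). Insig1, the other anchor and itself a well-known SREBP target, measured 52.5, 53.0 and 52.8 CPM against 64.5, 60.2 and 51.0 CPM (log2 0.15, SE 0.11, edgeR adjusted p = 0.266), with a negative sign under library totals (-0.14) and TPM (-0.38, limma adjusted p = 0.0269).

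Among the transport genes, Stard4, a cytosolic sterol carrier, measured 50.4, 62.4 and 53.7 CPM in UTX_Veh and 118, 82.8 and 81.5 CPM in IMQ_Veh (log2 0.76, SE 0.15, edgeR adjusted p = 0.000874). With TPM it missed the threshold (0.23, limma adjusted p = 0.163). Npc1 and Npc2 pass cholesterol out of the lysosome in turn, and they moved apart. Npc1 measured 97.7, 91.3 and 86.8 CPM against 74.6, 67.8 and 74.3 CPM (log2 -0.35, SE 0.09, edgeR adjusted p = 0.00548). Npc2 measured 104, 103 and 114 CPM against 158, 117 and 173 CPM (log2 0.48, SE 0.13, edgeR adjusted p = 0.00583), with the sign turned under TPM (-0.07, limma adjusted p = 0.703). In all 3 genes the groups were apart, a trait not counted over all genes tested.

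Markers of other cells moved with these genes. The 6 markers of proliferating cells summed to between 121.5 and 163 CPM in UTX_Veh, 601 and 908 in IMQ_Veh, 487 and 603 in IMQ_GW3965 and 570 and 673 in IMQ_Troglitazone. The 6 basal keratinocyte markers summed to between 11180 and 12560 CPM in UTX_Veh and between 22940 and 30800 in IMQ_Veh, a sum carried by Krt14 and Krt5. Of the other 4, Krt15 lay between 732 and 1015 CPM in UTX_Veh and between 110.1 and 194 in IMQ_Veh, and Col17a1 between 1845 and 1968 and between 731 and 797. Itgb4 (263 to 310 CPM against 204 to 272) and Trp63 (326 to 356 against 320 to 425) overlapped. The 6 suprabasal keratinocyte markers summed to between 13870 and 16620 CPM in UTX_Veh and between 28750 and 44720 in IMQ_Veh. That sum was carried by Krt1 and Krt10. Dsg1a fell from between 1474 and 1788 CPM to between 898 and 1020, and Lor overlapped. The 6 leukocyte markers, mostly Lyz2, summed to between 193 and 261 CPM in UTX_Veh and between 360 and 808 in IMQ_Veh. Cd3e fell from between 8.36 and 11.05 CPM to between 2.57 and 3.66, and Ptprc overlapped. Summed skeletal muscle markers fell, from between 7135 and 7965 CPM to between 851 and 3638. Markers of the sebaceous gland, a lipid-producing gland, summed to between 903 and 1030 CPM in UTX_Veh and between 646 and 1426 in IMQ_Veh. Beneath that overlap, Mc5r, Far2, Cidea and Awat2 were lower in every IMQ_Veh library than in any UTX_Veh library. Mc5r lay between 18.4 and 21.0 CPM in UTX_Veh and between 2.08 and 3.94 in IMQ_Veh. Far2 lay between 288 and 329 and between 66.6 and 162. Awat1, Elovl3 and Krt79 overlapped. The part of these cell markers in the result was not tested. Without IMQ_Veh replicate 3, which has the most muscle RNA of its group, 21 of the 27 genes were higher and 3 lower. Within each of the lane fields of the file names (L001 and L009, not explained in the labels) the median difference of the 27 genes was 0.74 and 0.73.

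On a scale per transcript length, TPM, which allows levels of different genes to be set side by side, the most abundant of the 27 in UTX_Veh were Hmgcs1 (280.2 ± 36.8, SD, n = 3), Msmo1 (252 ± 19.0), Fdps (221 ± 27.2), Dhcr7 (123 ± 4.29) and Pmvk (101 ± 12.1). Hmgcs1 and Msmo1 differed by less than the SD of Hmgcs1. In IMQ_Veh the order was Fdps (368 ± 55.6), Hmgcs1 (256 ± 48.8), Msmo1 (204 ± 24.9), Idi1 (145 ± 22.5) and Sqle (141 ± 16.6), and Dhcr7 stood at 76.8 ± 15.2, in place 13 of 27. The lowest levels were those of Tm7sf2 (18.0 ± 2.702) and Ggps1 (20.2 ± 4.12) in UTX_Veh and of Ggps1 (10.9 ± 0.554) in IMQ_Veh. The 27 genes together held between 1951.3 and 2330.2 TPM in UTX_Veh, 2035.9 and 2604.9 in IMQ_Veh, 2278.9 and 2893.1 in IMQ_GW3965 and 2787.5 and 3107.1 in IMQ_Troglitazone. On this scale the sums of UTX_Veh and IMQ_Veh overlapped.

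With GW3965 the transcripts of both Insig anchors were higher than with imiquimod alone, and 0 of the 20 enzymes passed the edgeR test. In IMQ_GW3965 against IMQ_Veh, 2 of the 27 genes rose and 0 fell, a share near that of all genes tested, of which 6.6% passed (3.71% higher and 2.88% lower). The median log2 fold change was 0.11 over the 27 genes and -0.01 over all genes. Without IMQ_Veh replicate 1, 2 or 3 the median of the 27 was 0.225, 0.144 and 0.046. Insig1 measured 97.8, 86.7 and 90.1 CPM in IMQ_GW3965 against 64.5, 60.2 and 51.0 in IMQ_Veh (log2 0.64, SE 0.11, edgeR adjusted p = 0.0141). Insig2 measured 71.3, 60.03 and 62.0 CPM against 46.0, 40.9 and 49.9 CPM (log2 0.50, SE 0.13, edgeR adjusted p = 0.045). In both genes all 3 GW3965 libraries exceeded all 3 IMQ_Veh libraries. Both calls rest on few libraries: 0 of the 27 genes were called without IMQ_GW3965 replicate 1, and 1 without IMQ_Veh replicate 1 or IMQ_GW3965 replicate 2 or 3. The Insig1 call was lost without IMQ_GW3965 replicate 1 (adjusted p = 0.0709) and with only these groups in the fit (0.0527), with log2 values of 0.56 to 0.71 over 20 alternatives. The Insig2 call was lost in 10 of 20 alternatives, with log2 values of 0.42 to 0.68 and adjusted p of 0.0121 to 0.17. Among them were leaving out IMQ_Veh replicate 1 or 2 or any of the 3 IMQ_GW3965 libraries, and a term for the lane field. Summed muscle markers lay between 4117 and 5958 CPM in IMQ_GW3965 against 851 to 3638 in IMQ_Veh, and sebaceous gland markers between 1616 and 1863 CPM against 646 to 1426, and their part in the result was not tested.

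Of the 20 enzymes, edgeR called 0 in this comparison. At an unadjusted p under 0.05 there were 2 (10%), Dhcr7 and Msmo1, against 25.9% of all genes. Dhcr7 measured 185, 193 and 190.4 CPM in IMQ_GW3965 against 143, 170 and 113 CPM in IMQ_Veh (log2 0.42, SE 0.12, adjusted p = 0.0591). Msmo1, a methylsterol oxidase, measured 315, 300.4 and 325 CPM against 279, 267 and 207 CPM (log2 0.32, SE 0.11, adjusted p = 0.0992). Neither gene's groups overlapped. For Sqle the 95% interval of the log2 fold change was -0.18 to 0.41, for Idi1 -0.27 to 0.40 and for Ebp -0.20 to 0.33. Srebf2 had a log2 fold change of -0.16 (-0.47 to 0.14, adjusted p = 0.498) and Scap of -0.21 (-0.43 to 0.02, adjusted p = 0.222), and Scap was called lower without IMQ_Veh replicate 3 (-0.30, adjusted p = 0.0462). DESeq2 and limma-voom each called 3 of the 27 genes, the third being Dhcr7 (adjusted p = 0.0306 and 0.045), which edgeR also called with upper-quartile factors (0.0486), with no filter on low counts (0.0448) and without IMQ_Veh replicate 2 (0.0161).

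**Figure D3:**
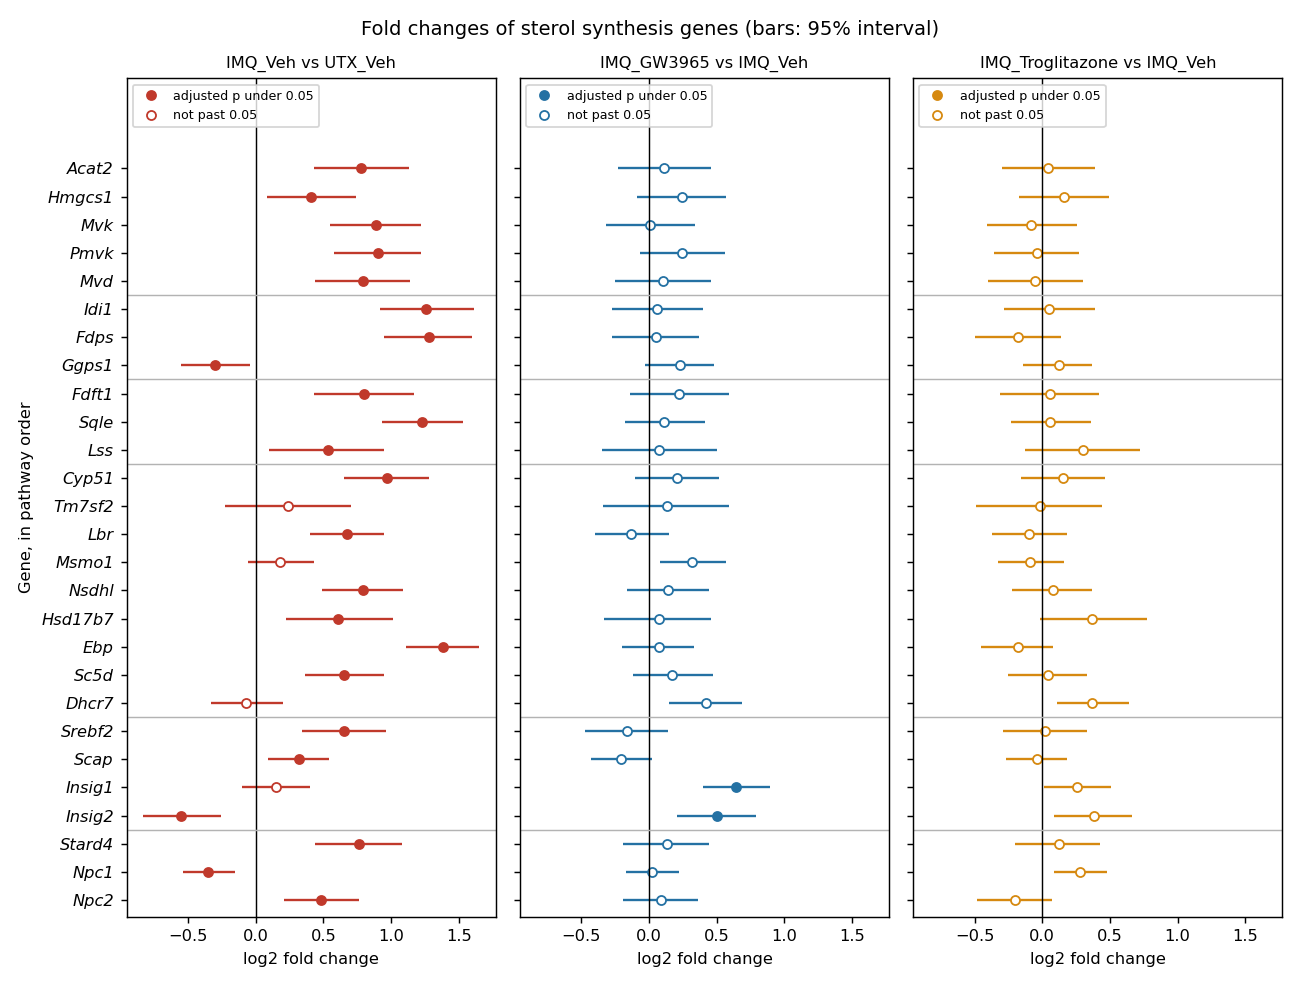
Points are log2 fold changes of the 27 genes (rows, in pathway order) in 3 comparisons (panels), filled where the edgeR adjusted p was under 0.05, with bars for the 95% interval. IMQ_Veh is in all 3 comparisons; 23 points are filled in the first panel, 2 (Insig1 and Insig2) in the second and 0 in the third.

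The number of Insig1 counts per 1000 counts of the 20 enzymes, a ratio within each library that was also chosen after the values were seen, was 24.3, 21.3 and 27.7 in UTX_Veh and 16.0, 15.5 and 17.9 in IMQ_Veh. It was 24.2, 22.7 and 21.7 in IMQ_GW3965 and 20.0, 17.3 and 18.0 in IMQ_Troglitazone. The GW3965 libraries lay above the IMQ_Veh libraries and within the range of UTX_Veh, and the troglitazone libraries overlapped those of IMQ_Veh. For Insig2 the same ratio was 29.7, 26.8 and 36.1 in UTX_Veh, 11.4, 10.6 and 17.5 in IMQ_Veh, 17.6, 15.7 and 14.9 in IMQ_GW3965 and 13.9, 13.3 and 19.8 in IMQ_Troglitazone. All 9 imiquimod libraries lay below UTX_Veh, and the 3 imiquimod groups overlapped.

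**Figure D4:**
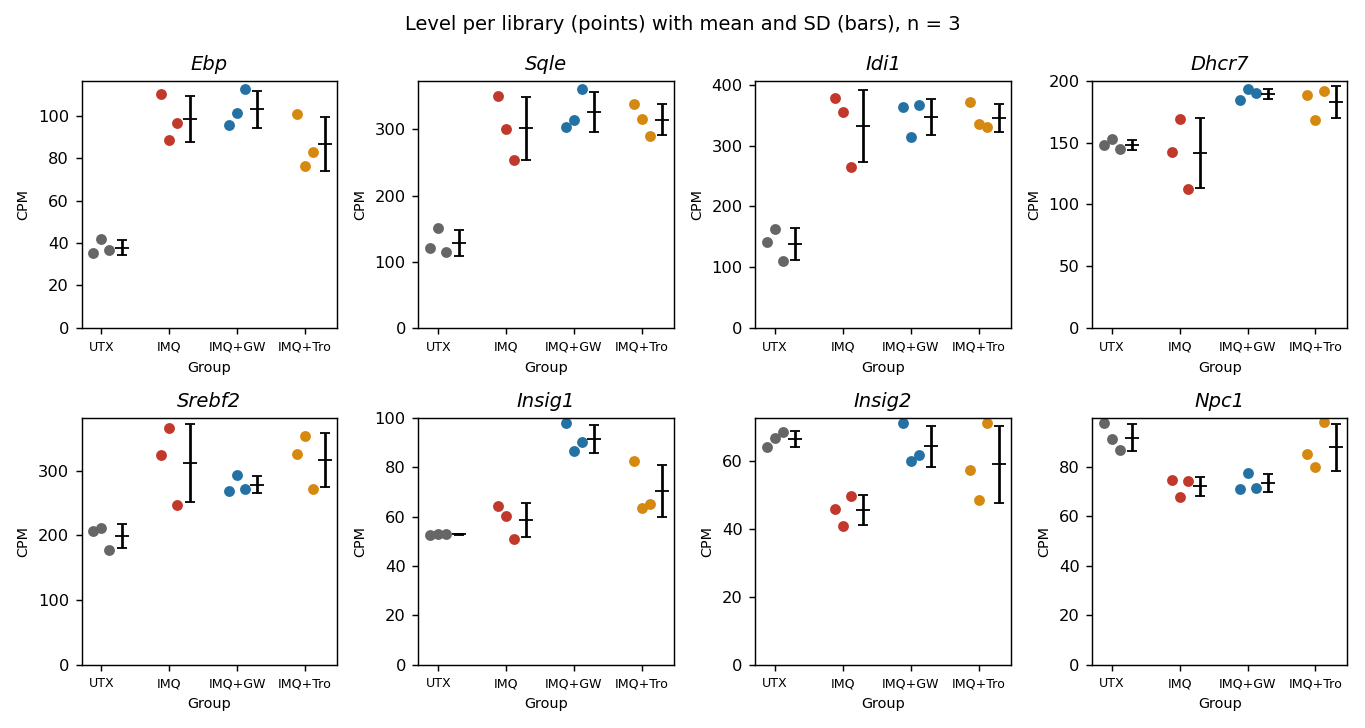
CPM of 8 genes in each library (points), with the mean and SD of the 3 libraries of each group (bars); the groups are UTX_Veh, IMQ_Veh, IMQ_GW3965 and IMQ_Troglitazone from left to right and each axis starts at 0. Ebp, Sqle and Idi1 are high in all imiquimod groups, and Insig1 is highest in IMQ_GW3965 (86.7 to 97.8 CPM).

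With troglitazone edgeR called no gene of the set. In IMQ_Troglitazone against IMQ_Veh, edgeR called 0 of 27 genes, where 9.33% of all genes tested passed (4.69% higher and 4.65% lower). At an unadjusted p under 0.05 there were 4 of the 27 (14.8%), against 28.2% of all genes. DESeq2 called 2, Dhcr7 and Npc1, and limma-voom 0. The median log2 fold change was 0.05 over the 27 genes and -0.02 over all genes. Without IMQ_Veh replicate 1, 2 or 3 the median of the 27 was 0.158, 0.096 and -0.082. The 4 genes at an unadjusted p under 0.05 were Dhcr7 (log2 0.37, SE 0.12, adjusted p = 0.0747), Insig2 (0.38, SE 0.13, adjusted p = 0.0897), Npc1 (0.28, SE 0.09, adjusted p = 0.0672) and Insig1 (0.26, SE 0.11, adjusted p = 0.155). Npc1 measured 85.4, 80.1 and 98.4 CPM in IMQ_Troglitazone, above all 3 IMQ_Veh libraries. Insig1 measured 82.4, 63.3 and 65.0 CPM and Insig2 57.4, 48.6 and 71.4 CPM, and both overlapped IMQ_Veh. Srebf2 (log2 0.02, 95% interval -0.29 to 0.33) and Scap (-0.04, -0.27 to 0.18) changed sign among the alternatives. A count of 1 was reached without IMQ_Veh replicate 2 or IMQ_Troglitazone replicate 2, and 2 genes without IMQ_Veh replicate 3. With TPM, where the median of all genes rose by 0.192, 5 genes were called higher.

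Set directly against each other, the drugs gave no difference called by edgeR in the set. In IMQ_GW3965 against IMQ_Troglitazone, edgeR called 0 of 27 genes, where 1.86% of all genes tested passed (1.08% higher and 0.782% lower). At an unadjusted p under 0.05 there were 4 of the 27 (14.8%), against 16% of all genes. DESeq2 called 2 of the 27, Insig1 and Msmo1, and limma-voom 0. The median log2 fold change of the 27 was 0.07, and it was -0.056 with library totals and -0.244 with TPM, where the median of all genes was -0.121 and -0.230 and the signs of 12 and 19 of the 27 genes turned. Insig1 had a log2 fold change of 0.38 (95% interval 0.14 to 0.63, adjusted p = 0.108) with groups apart, and DESeq2 gave it an adjusted p of 0.0433. Msmo1 had 0.41 (0.16 to 0.66, adjusted p = 0.0892), Npc1 -0.26 (-0.46 to -0.06, adjusted p = 0.168) and Npc2 0.29 (0.02 to 0.56, adjusted p = 0.282). Insig2 had 0.12 (-0.16 to 0.41, adjusted p = 0.702), with a sign that turned with TPM (-0.20), and Srebf2 -0.19 (-0.50 to 0.12, adjusted p = 0.571) and Scap -0.17 (-0.39 to 0.06, adjusted p = 0.461). These intervals leave room for differences of either size within them, and a missed threshold does not show that the drugs act alike.

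Both drug groups differed from UTX_Veh in most of the set. In IMQ_GW3965 against UTX_Veh, 22 of the 27 genes were higher and 1, Npc1, lower, where 50.2% of all genes tested passed (28.7% higher and 21.5% lower), and the median log2 fold change was 0.80 against 0.00 over all genes. In IMQ_Troglitazone against UTX_Veh, 20 were higher and 0 lower, where 45.3% of all genes passed (26.5% higher and 18.8% lower), and the median was 0.74 against 0.01. These comparisons share the UTX_Veh libraries with each other and with that of IMQ_Veh. Ebp had log2 fold changes of 1.44 (SE 0.12, edgeR adjusted p = 7.31e-06) with GW3965 and 1.19 (SE 0.12, 3.12e-05) with troglitazone. Insig1 had 0.80 (SE 0.11, 0.00018) and 0.41 (SE 0.11, 0.012), and Insig2 -0.05 (SE 0.13, 0.786) and -0.17 (SE 0.13, 0.299). The Insig1 call with troglitazone was lost without IMQ_Troglitazone replicate 1 (0.0548), and the Npc1 call with GW3965 without UTX_Veh replicate 1 (0.0514). Insig1 with troglitazone also missed the threshold with upper-quartile factors, library totals and TPM. With GW3965 it did so with TPM (limma adjusted p = 0.215). Scap, called higher with troglitazone, kept its call in only 5 of 19 alternatives. With TPM, 9 genes were higher and 3 lower with GW3965, where Tm7sf2, Lbr, Msmo1, Dhcr7, Scap and Npc2 turned negative, and 16 higher and 2 lower with troglitazone, where Tm7sf2, Msmo1, Scap and Npc2 turned negative.

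Beyond the 27 genes, a list of 34 related sterol genes moved both ways in IMQ_Veh against UTX_Veh: 9 rose and 11 fell, where 32.9% of all genes rose and 28.9% fell, with a median log2 fold change of -0.01. Among 9 other genes of the SREBP pathway 3 rose and 3 fell. Tmem97, a sterol-binding membrane protein, rose (log2 1.19, edgeR adjusted p = 0.000122), as did Erg28 (1.03, 0.000259). Mbtps1, the protease that makes the first cut in SREBP, fell (-0.54, 7.66e-05), and so did Srebf1, the SREBP gene tied to fatty acid synthesis (-0.95, 0.000181).

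Of the 14 genes of sterol esterification, export and sensing 1 rose and 6 fell in IMQ_Veh against UTX_Veh. In that comparison 32.9% of all genes tested rose and 28.9% fell, and the lists that follow are small. Mylip, a ubiquitin ligase and an LXR target, fell (log2 -1, edgeR adjusted p = 4.53e-05), as did Gramd1b (-1.29, 0.000346), Nr1h2, the gene of LXRβ (-0.35, 0.0018), and Soat1, which esterifies cholesterol (-0.65, 0.00799). Of 4 oxysterol enzymes 2 rose and 2 fell: Cyp7b1, an oxysterol hydroxylase, measured 3.26, 2.63 and 4.23 CPM in UTX_Veh and 35.6, 37.2 and 29.1 in IMQ_Veh (log2 3.33, SE 0.36, edgeR adjusted p = 1.62e-05). Ch25h rose (2.58, 0.000395), while Hsd3b7 (-0.90, 0.000407) and Cyp27a1 (-0.97, 0.0403) fell, the last not without UTX_Veh replicate 1 or 3 or IMQ_Veh replicate 1 or 2. Of 7 genes that use isoprenoids 3 rose and 0 fell, namely Nus1 (1.31, 1.04e-05), Fntb (0.59, 0.000313) and Pdss1 (1.82, 0.000377).

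In IMQ_GW3965 against IMQ_Veh 4 of the 34 related genes rose and 2 fell, where 3.71% of all genes were higher and 2.88% lower. Srebf1, a textbook LXR target, measured 311, 347 and 265 CPM in IMQ_GW3965 against 111, 159 and 123 CPM in IMQ_Veh (log2 1.23, SE 0.15, edgeR adjusted p = 0.00277), and was called in all 20 alternatives. Soat1 (1.15, 0.00854), Mylip (0.74, 0.0125) and Gramd1c (0.93, 0.0244) rose, and Soat2 (-1.81, 0.022) and Cyp7b1 (-1.27, 0.0403) fell. Soat2 stayed under 1 CPM in every library. Of these, Soat1 lost its call only with these groups alone in the fit, Mylip without IMQ_Veh replicate 1 or IMQ_GW3965 replicate 1, and Gramd1c without IMQ_Veh replicate 1 or any IMQ_GW3965 library. Soat2 lost it without IMQ_Veh replicate 1 or any IMQ_GW3965 library, and Cyp7b1 without IMQ_Veh replicate 1 or 2 or any IMQ_GW3965 library. Gramd1c, Soat2 and Cyp7b1 also lost their calls with these groups alone in the fit, and Soat2 with TPM. With a term for the lane field, Gramd1c and Cyp7b1 lost theirs too. In IMQ_Troglitazone against IMQ_Veh 3 rose and 0 fell, where 4.69% of all genes were higher and 4.65% lower: Srebf1 (0.57, 0.0347), Soat1 (0.80, 0.0236) and Gramd1c (0.77, 0.0374). Each of these lost its call without IMQ_Veh replicate 1 or IMQ_Troglitazone replicate 1 or 3, and with only the troglitazone and IMQ_Veh groups in the fit. Srebf1 also lost it without IMQ_Troglitazone replicate 2 and with library totals, and Gramd1c also without IMQ_Veh replicate 2. With a term for the lane field, Srebf1 and Gramd1c lost their calls too. Sebaceous gland markers summed to between 1616 and 1863 CPM in IMQ_GW3965 and between 1321 and 1678 in IMQ_Troglitazone, against 646 to 1426 in IMQ_Veh, and muscle markers to between 4117 and 5958 and between 2628 and 4189, against 851 to 3638. Their part in these results was not tested.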

How the data were processed

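The authors deposited 1 RSEM gene table for each of the 12 libraries. It holds expected counts (reads per gene as estimated by RSEM) and TPM (scaled by length and to a common total), both made by the authors. FPKM were deposited too but not used here. Per the labels' protocols, libraries came from a stranded mRNA kit. Per the submitters' processing notes, the tools were STAR 2.7.3a and RSEM 1.3.3, after Trim Galore and FastQC, on GRCm38 (mm10). Neither the annotation release nor the strand setting is stated in the sources used here. GENCODE M21 (GRCm38) gave symbols for 52083 of 55416 identifiers. Replicates all differed by more than sampling noise (lowest chi-square per degree of freedom 8.34).

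Expected counts were rounded and tested with edgeR 4.0.16 in R 4.3.3: filterByExpr by group (17130 genes), TMM scaling, and the quasi-likelihood test in a single fit of 12 libraries with 8 residual degrees of freedom. Calls were made at 0.05 after Benjamini-Hochberg adjustment across the genes tested. SE is the absolute log2 fold change divided by the root of F. Levels per gene are CPM, and levels between genes are the deposited TPM. Alternatives used DESeq2 1.42.0, limma 3.58.1 (voom), other scalings and filters, a lane term, a replicate block and fits without single libraries. Library totals and log2(TPM + 1) with limma were added after the data were seen. On simulated data for GW3965 against IMQ_Veh (17130 genes), 19 of 100 genes changed by 1.5-fold and 78 of 100 changed by 2-fold were recovered, with 10 unchanged genes called. Every simulated gene had the same dispersion (spread between libraries), 0.03, and no simulated library was outlying. Recovery in the real libraries, which are less even, may differ.

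The members, the lists of related and marker genes, and the naming rule were all set with earlier results of these data known. Full values go to the 2 called genes with the smallest adjusted p of each role and direction in IMQ_Veh against UTX_Veh, to genes called in a drug comparison, and to Srebf2, Scap, Insig1 and Insig2. Of the related genes, up to 4 called genes per list and comparison are named. Some genes of the list of related genes are not reported here. Proteins of Insig1 and Insig2 were not compared here.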

Additional observations from a re-analysis of the deposited data

Results flagged for a closer look

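The drugs differed in 1 of the 34 related genes by the direct edgeR test between them, where 1.86% of all genes tested passed (1.08% higher and 0.782% lower). Srebf1 was higher in IMQ_GW3965 (311, 347 and 265 CPM) than in IMQ_Troglitazone (219, 192 and 172 CPM), by log2 0.66 (SE 0.14, edgeR adjusted p = 0.0437). The difference missed the threshold in 13 of 20 alternatives, among them each fit without a library of either drug group, with adjusted p from 0.00203 to 0.497 over all 20.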

How the results depend on the processing

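In IMQ_Veh against UTX_Veh, the number of the 27 genes called lay between 18 and 24 without single libraries and fell from 23 to 12 with TPM. Signs turned with library totals in 3 genes, Insig1 (-0.14), Msmo1 (-0.11) and Tm7sf2 (-0.06), and with TPM in 6, Insig1 (-0.38), Msmo1 (-0.30), Tm7sf2 (-0.27), Hmgcs1 (-0.14), Scap (-0.23) and Npc2 (-0.07). In IMQ_GW3965 against UTX_Veh 12 genes were called with TPM; Dhcr7 (0.00) and Scap (-0.24) turned with library totals, and Tm7sf2 (-0.15), Lbr (-0.09), Msmo1 (-0.01), Dhcr7 (-0.28), Scap (-0.48) and Npc2 (-0.03) with TPM. In IMQ_Troglitazone against UTX_Veh Tm7sf2 (-0.01) and Msmo1 (-0.12) turned with library totals, Msmo1 with upper-quartile factors (-0.02), and Tm7sf2 (-0.08), Msmo1 (-0.19), Scap (-0.03) and Npc2 (-0.01) with TPM. The cause of the turned signs was not tested beyond the shift of all genes given above.

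In IMQ_GW3965 against IMQ_Veh, 2 of the 27 genes and 1130 of all genes were called. Without single libraries these counts ranged from 0 to 3 and from 105 to 3644. They were 0 and 103 with only the 2 groups fitted and 1 and 549 with the lane term. The 27 genes gave 1 with lane and block, with library totals and with TPM. All genes gave 2221 with DESeq2, 3040 without both replicates 3 and 529 with TPM. The sign of 3 genes turned with each of library totals and TPM. In IMQ_Troglitazone against IMQ_Veh, 0 and 1599 were called, from 0 to 2 and from 162 to 4464 without single libraries. The 27 genes gave 2 with DESeq2, 1 without both replicates 3 and 5 with TPM. All genes gave 2592 with DESeq2, 0 with only the 2 groups, 1009 with the lane term, 991 with lane and block, 4165 without both replicates 3 and 1036 with library totals. Signs turned in 4 genes with library totals and 10 with TPM. Scap turned without IMQ_Veh replicate 2 (0.10) or IMQ_Troglitazone replicate 3 (0.01), in a range of -0.13 to 0.10 without single libraries, with library totals (0.03) and with TPM (0.20), and Srebf2 without IMQ_Veh replicate 3 (-0.12) or IMQ_Troglitazone replicate 2 (-0.06), in a range of -0.12 to 0.17, and without both replicates 3 (-0.11). Between the drugs, 0 and 319 were called, with all genes between 0 and 73 without single libraries. The 27 genes gave 2 with DESeq2 and 1 with TPM. All genes gave 960 with DESeq2, 140 with no filter, 9 with only the 2 groups, 26 with lane and block, 0 without both replicates 3 and 1452 with TPM. Signs turned in 12 of the 27 genes with library totals and 19 with TPM, among them Insig2 (0.00 and -0.20).

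The replicate block left the calls of the 27 genes at 23, 2, 0, 0, 23 and 20 in the 6 comparisons and moved all genes between the drugs from 319 to 131. Same-numbered libraries deviated together only in part (r from -0.221 to 0.312, and not above 0.1 for every pair in any comparison). In IMQ_Veh against UTX_Veh 3 of 3 IMQ_Veh libraries correlated best with their own number (r from 0.066 to 0.312). In IMQ_Troglitazone against IMQ_Veh 2 of 3 troglitazone libraries did (0.072 to 0.219). It was 1 of 3 in IMQ_GW3965 against IMQ_Troglitazone and in IMQ_Troglitazone against UTX_Veh. For IMQ_GW3965 against IMQ_Veh or UTX_Veh it was 0 of 3. These values do not settle whether the number pairs libraries. In the simulation of IMQ_GW3965 against IMQ_Veh, with the same spread for every gene and no outlying library, 19 of 100 changes of 1.5-fold were recovered.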
